A study of Mus musculus with 30 samples.

Results

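The 34 genes described here encode the proteins that move and store zinc, manganese, iron and copper. They are 8 exporters of the Slc30 family, 13 importers of the Slc39 family, the iron exporter Slc40a1, the metal transporters Slc11a1 and Slc11a2, the copper importer Slc31a1, the copper pumps Atp7a and Atp7b, the transferrin receptor Tfrc, the ferritin genes Fth1 and Ftl1, the ferroxidase Heph, the ferric reductase Cybrd1 and the metallothioneins Mt1 and Mt2. They were taken by symbol, and all 34 are among the 24746 gene symbols counted in each library. The mRNA of unsorted gut wall of C3H/HeOuJ mice was read as 3' end tags in 30 libraries, 3 for each of 10 groups. The 6 ileum groups, all untreated, are germ-free (GF), specific-pathogen-free (SPF) and colonized (COL) animals at 6 weeks and again at 10 weeks, where COL animals were born germ-free and received SPF microbiota when 5 weeks old. The 4 distal colon groups, all 10 weeks old, are SPF and COL animals without treatment and the same after dextran sulfate sodium (DSS), which injures the colonic epithelium, at 1.5% for 4 days with 2 days of water to follow. No germ-free colon is among the groups. Whether the replicates of a group are separate animals is not stated in the labels. All p-values therefore measure only the spread between these libraries, which may be technical.

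Slc30 proteins carry zinc, or in the case of Slc30a10 manganese, out of the cytosol, and Slc39 proteins carry zinc, manganese and iron into it. In the gut, enterocytes take up ferrous iron through Slc11a2 and pass it to the blood through ferroportin, the product of Slc40a1, with the help of the ferroxidase hephaestin. Ferritin stores iron, Tfrc brings in transferrin-bound iron, and metallothioneins bind zinc and copper. The zinc-sensing transcription factor MTF1 acts on metallothionein genes and on Slc30a1 through short metal response elements. Their core fits the pattern TGCNCNC, where N is any base, but not every match to this pattern is such a core.

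The metallothioneins and the zinc exporters Slc30a1 and Slc30a4 are among the genes that differed between colonized and germ-free ileum, and Slc30a10 is the one that fell furthest with DSS among the 34 in colon. The promoters of these 5 genes are therefore shown with the pattern TGCNCNC searched on both strands. Each runs 5' to 3' on the gene's strand from 250 bases before to 30 bases after the RefSeq start site. The letters are of GRCm38.p6, the C57BL/6J reference, whereas the mice are C3H/HeOuJ. Each match to the pattern is in capitals, and overlapping matches run together.
Mt1: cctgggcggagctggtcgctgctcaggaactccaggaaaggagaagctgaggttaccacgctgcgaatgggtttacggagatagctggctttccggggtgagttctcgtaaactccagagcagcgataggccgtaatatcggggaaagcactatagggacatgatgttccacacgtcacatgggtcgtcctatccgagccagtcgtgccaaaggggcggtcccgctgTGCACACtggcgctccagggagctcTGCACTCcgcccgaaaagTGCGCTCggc
Mt2: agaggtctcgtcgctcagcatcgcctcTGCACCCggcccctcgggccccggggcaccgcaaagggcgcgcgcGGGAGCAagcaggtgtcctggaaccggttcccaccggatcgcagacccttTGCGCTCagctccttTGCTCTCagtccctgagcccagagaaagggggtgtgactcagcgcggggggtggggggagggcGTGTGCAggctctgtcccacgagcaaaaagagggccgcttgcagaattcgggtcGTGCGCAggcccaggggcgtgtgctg
Slc30a1: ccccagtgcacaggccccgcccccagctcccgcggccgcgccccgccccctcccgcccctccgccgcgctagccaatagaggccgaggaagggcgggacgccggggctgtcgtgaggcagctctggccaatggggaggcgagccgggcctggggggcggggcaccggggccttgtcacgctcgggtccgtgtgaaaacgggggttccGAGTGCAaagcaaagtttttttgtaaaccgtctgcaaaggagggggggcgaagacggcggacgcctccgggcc
Slc30a4: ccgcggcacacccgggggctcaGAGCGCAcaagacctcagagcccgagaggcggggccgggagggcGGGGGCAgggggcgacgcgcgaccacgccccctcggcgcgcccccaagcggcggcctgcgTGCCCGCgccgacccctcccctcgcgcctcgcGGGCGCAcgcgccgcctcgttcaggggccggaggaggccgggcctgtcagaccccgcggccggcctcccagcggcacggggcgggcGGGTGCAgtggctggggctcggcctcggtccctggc
Slc30a10: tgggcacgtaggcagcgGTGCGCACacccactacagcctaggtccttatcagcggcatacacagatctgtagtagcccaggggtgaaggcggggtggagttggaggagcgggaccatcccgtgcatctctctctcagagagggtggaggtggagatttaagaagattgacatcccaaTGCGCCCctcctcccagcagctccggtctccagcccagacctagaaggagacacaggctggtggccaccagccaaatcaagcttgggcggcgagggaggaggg
The windows are chr8:94178839-94179118 (plus strand) for Mt1, chr8:94172368-94172647 (plus) for Mt2, chr1:191906531-191906810 (plus) for Slc30a1, chr2:122702634-122702913 (minus) for Slc30a4 and chr1:185454598-185454877 (plus) for Slc30a10. Mt2 held 6 matches, Slc30a4 5, Mt1 3, Slc30a10 3 and Slc30a1 1. Of all 32851 promoter windows of this length in the table, 48.5% held at least 1 match, 6.11% at least 3, 0.563% at least 5 and 0.155% at least 6. The 28 of 34 genes with an entry had 34 windows, of which 22 held a match. Some genes had more than 1 window, and 20 genes held a match in at least 1. A match to these letters is a description of the window.

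Each library held between 2233837 and 9088573 reads assigned to genes. Levels below are CPM values, a gene's count scaled to the library's assigned reads. Log2 fold changes with their standard error come from edgeR's quasi-likelihood test with TMM scaling, and a gene is said to have risen or fallen where the p-value, adjusted by Benjamini-Hochberg over all genes tested, was under 0.05. A filter on low counts left 30 of the 34 genes in the colon (without Slc30a2, Slc39a2, Cybrd1 and Atp7b) and 32 in the ileum and in the comparison of tissues (without Slc39a2 and Atp7b). Slc39a2 had at most 9 counts in any library and Atp7b at most 3. Over the 18 comparisons, 23 of the genes passed at least once. In all of this, fewer cells of a type and less RNA per cell cannot be told apart. Tissue markers matched the labels, with small-intestine enterocyte genes summing to 19908 CPM or more in every ileum library and to 292 CPM or less in every colon library.

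**Figure D1:**
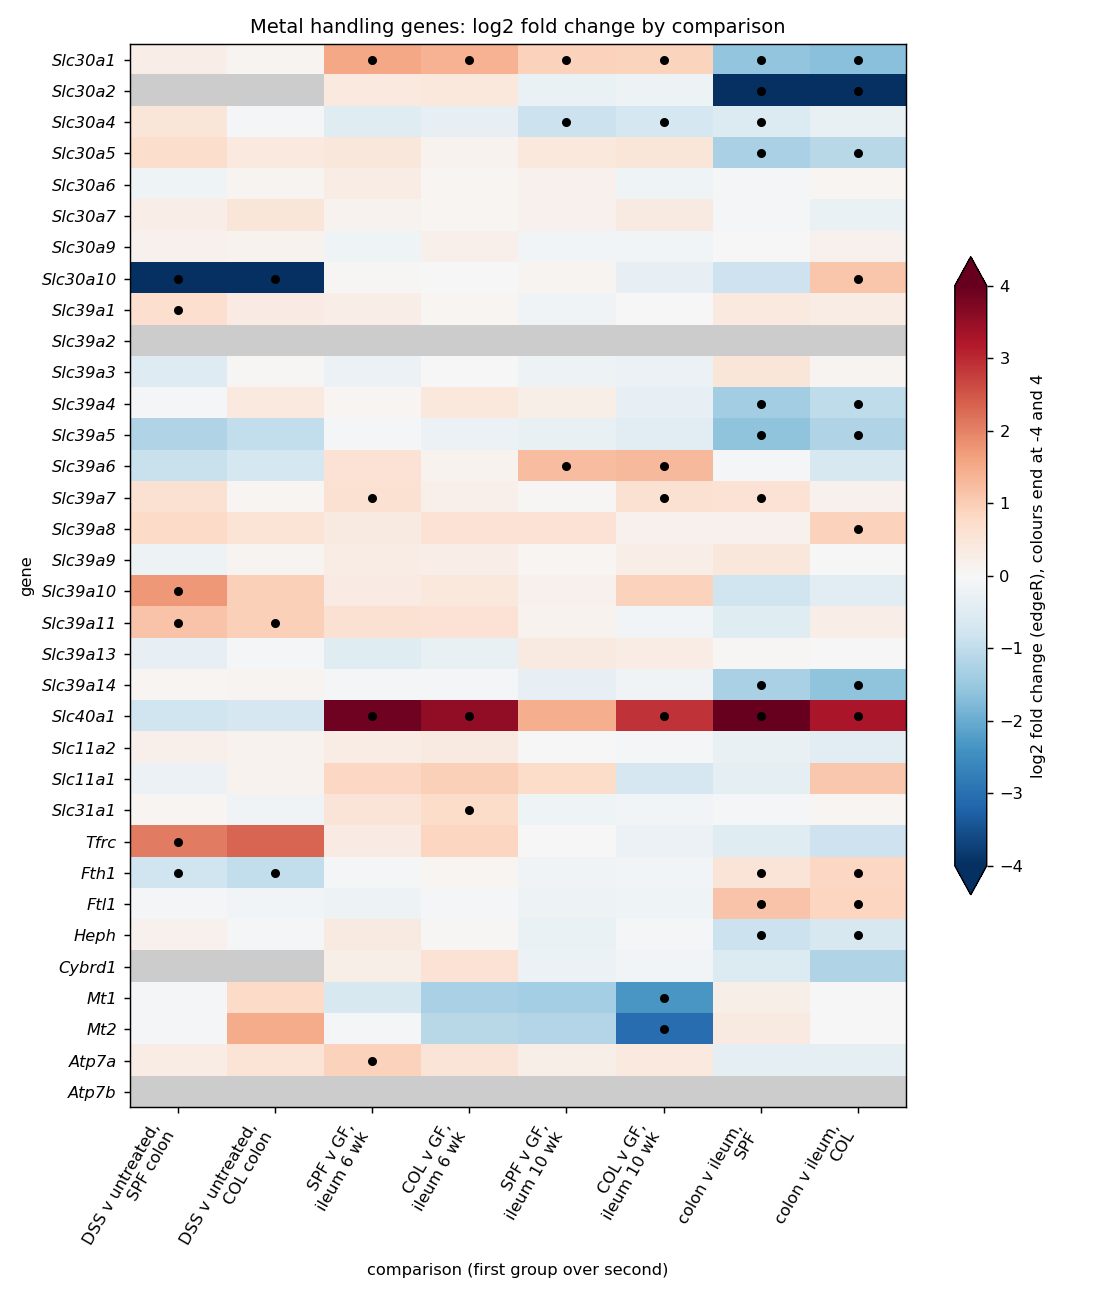
Log2 fold change (colour, red higher and blue lower in the first group) of the 34 genes (rows) in 8 comparisons (columns), with black dots where the adjusted p was under 0.05 and grey where the gene was not tested. Slc40a1 and Slc30a1 are red in ileum with microbiota, and Slc30a10 is dark blue in both DSS columns.

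DSS in the SPF colon changed genes of manganese, zinc and iron handling. The manganese exporter gene Slc30a10 fell 18.5-fold, the zinc importer genes Slc39a11, Slc39a1 and Slc39a10 rose, the transferrin receptor gene Tfrc rose 4.21-fold, and the ferritin heavy chain gene Fth1 fell 1.73-fold. These are 6 of 30 tested (4 rose, 2 fell), where 24.1% of all 12855 genes passed (12.2% rose and 11.9% fell), so the share of metal handling genes was near the background. Their median log2 fold change was 0.08, and that of all genes was -0.03.

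Slc30a10 was at 22.5, 7.59 and 6.81 CPM in the 3 untreated SPF libraries and at 0, 0.379 and 1.65 CPM in the 3 DSS libraries (log2 fold change -4.21 ± 0.69, adjusted p = 0.00083). In untreated COL colon it was at 39.5, 33.4 and 31.8 CPM, and after DSS at 0.883, 0.844 and 0.412 CPM (-5.48 ± 0.65, adjusted p = 0.00018, 44.5-fold lower). The groups did not overlap in either microbiota state, and no DSS library reached 2 CPM. Slc30a10, at chr1:185454848-185468762 (mm10), encodes an exporter of manganese. The fall kept its call under every alternative tried, with log2 fold changes between -5.81 and -3.43 in SPF and between -5.64 and -5.27 in COL. Colonocyte marker genes moved the same way: 5 of 6 tested fell in SPF and 3 of 6 in COL, and the sum over the list went from 6975 to 10760 CPM in untreated libraries to 2181 to 5509 CPM after DSS. The median log2 fold change of the list was -1.75 in SPF and -1.23 in COL. Mean sums of the goblet, smooth muscle and enteroendocrine lists were also lower after DSS, in SPF from 20521 to 5848, 5580 to 1699 and 1366 to 587 CPM. In COL they went from 17132 to 10308, 4898 to 2714 and 1059 to 765 CPM. Paneth, proliferation and neutrophil sums were higher in both states. The part of any of these cells in the Slc30a10 result was not tested.

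Among the zinc importers, Slc39a11 was at 80.4, 82.1 and 95.5 CPM in untreated SPF colon and at 165, 220 and 158 CPM after DSS (1.14 ± 0.22, adjusted p = 0.0023). In COL colon it was at 97.9, 149 and 114 CPM untreated and at 210, 239 and 212 CPM after DSS (0.94 ± 0.22, adjusted p = 0.016). All 6 DSS libraries lay above all 6 untreated ones. The COL call was lost without untreated replicate 1 or 3 or DSS replicate 2 (adjusted p = 0.10, 0.074 and 0.057). Slc39a1, a plasma-membrane importer, was at 106, 105 and 109 CPM in untreated SPF colon and at 155, 177 and 157 CPM after DSS (0.68 ± 0.21, adjusted p = 0.026). Slc39a10, another plasma-membrane importer, had low counts, at 0.522, 2.01 and 4.28 CPM untreated and 4.18, 7.40 and 11.1 CPM after DSS (1.73 ± 0.53, adjusted p = 0.027). Slc39a1 did not overlap between the groups, whereas Slc39a10 did. The Slc39a1 call was lost without untreated replicate 1 or 2 or DSS replicate 2 and in a fit of these 6 libraries alone, and the Slc39a10 call without untreated replicate 1 or 2 or DSS replicate 2 or 3 and in the same fit (highest adjusted p = 0.087 and 0.11).

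The iron genes Tfrc and Fth1 moved in opposite directions. Tfrc, at chr16:32608920-32632794 (mm10), was at 243, 155 and 82.3 CPM in untreated SPF colon and at 413, 636 and 894 CPM after DSS (2.07 ± 0.65, adjusted p = 0.038). In COL colon it was at 98.4, 94.3 and 129 CPM untreated and at 1177, 160 and 233 CPM after DSS (2.33 ± 0.66, adjusted p = 0.056 in edgeR, not past the threshold, and 0.021 in DESeq2). Every DSS library was above every untreated library of its microbiota state, but COL DSS replicate 1 was far above the other two, and without it the log2 fold change was 1.00 (adjusted p = 0.17). Without COL DSS replicate 2 the gene passed (2.76, adjusted p = 0.018). The SPF call was lost without any 1 of 5 of the 6 libraries (all but DSS replicate 1) and without a filter on low counts, with the adjusted p between 0.052 and 0.13. Proliferation marker genes rose with DSS in the same libraries, 9 of 10 in SPF and 8 of 10 in COL, from sums of 266 to 501 CPM to sums of 996 to 1974 CPM, and their part in the Tfrc result was not tested.

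Fth1, the ferritin heavy chain gene, was at 2690, 2388 and 2533 CPM in untreated SPF colon and at 1730, 1333 and 1142 CPM after DSS (-0.79 ± 0.24, adjusted p = 0.027). In COL colon it was at 3616, 2949 and 3214 CPM untreated and at 1893, 1585 and 1192 CPM after DSS (-1.0 ± 0.24, adjusted p = 0.019, 2.00-fold lower). All 6 DSS libraries lay below all 6 untreated ones. The SPF call was lost without untreated replicate 1 or DSS replicate 2 or 3 and in a fit of the 6 SPF libraries alone (highest adjusted p = 0.11), and the COL call without untreated replicate 1 or 3 or DSS replicate 2 or 3 (highest adjusted p = 0.091). The ferritin light chain gene Ftl1 had means of 942 ± 719 CPM untreated and 875 ± 110 CPM after DSS in SPF colon (SD, n = 3). Ferritin genes have near-identical retrocopies, and reads mapping to several places (28.0% to 36.9% of a library's aligned reads) entered no gene's count, so ferritin values are uncertain.

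**Figure D2:**
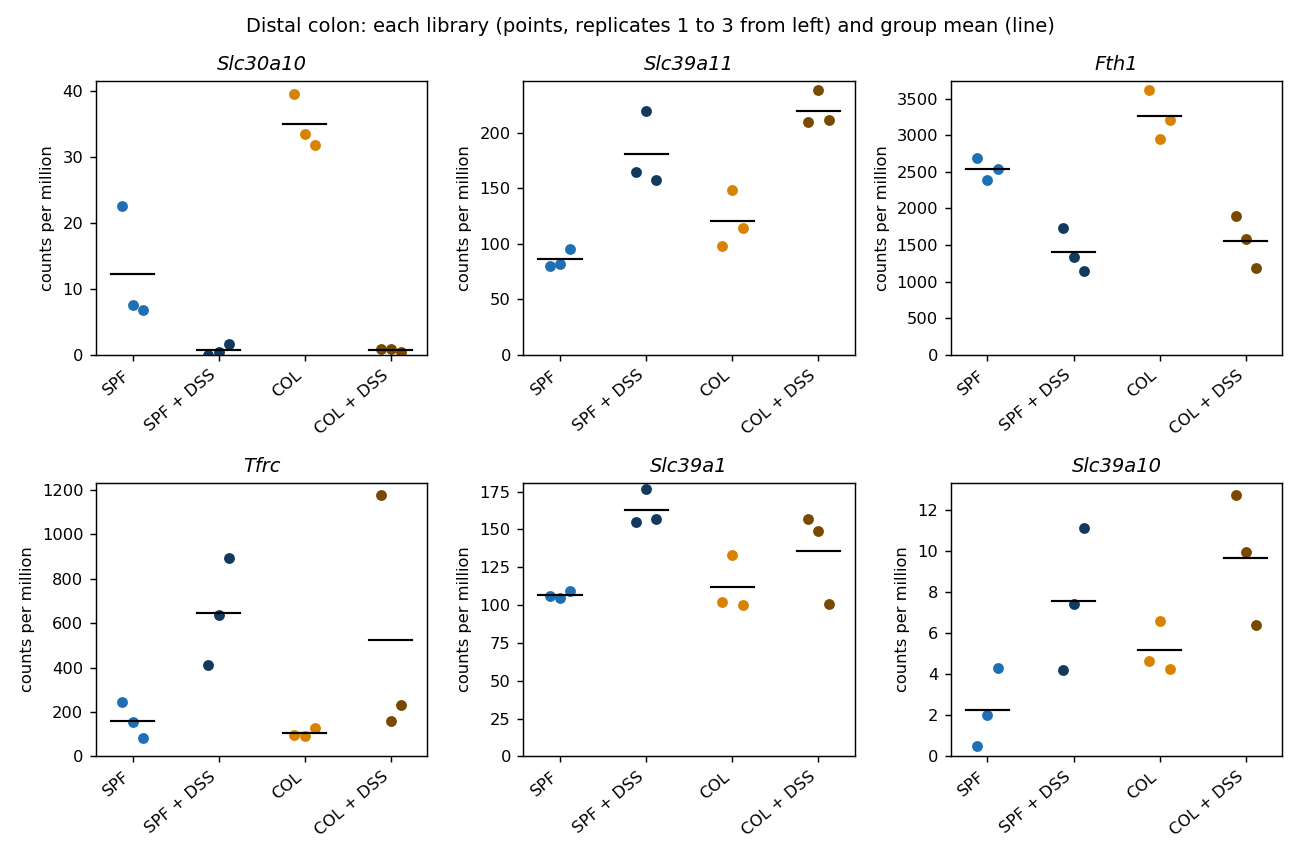
CPM (y axes, linear from 0) of 6 genes in the 4 colon groups (x axes), with a point for each library and a line at the group mean. DSS libraries sit near 0 for Slc30a10, above the untreated ones for Slc39a11 and below them for Fth1, and 1 COL DSS library of Tfrc stands at 1177 CPM.

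In COL colon 3 of 30 genes passed (1 rose, 2 fell), where 7.14% of all genes passed (4.14% rose and 3.0% fell). No gene of the 30 passed for a different DSS response in COL and SPF (edgeR: 0 passed, 0 at an unadjusted p under 0.05, DESeq2: 0 passed, background 0% of genes). This does not show equal responses, since the log2 differences ranged from -1.26 to 1.51. The difference of the Slc30a10 responses was -1.26 ± 1.07 (adjusted p = 0.76), and that of the Fth1 responses -0.21 ± 0.34 (adjusted p = 0.89). The importers Slc39a5 and Slc39a8 and the iron exporter Slc40a1 did not pass in either state. Slc40a1 was at 366 ± 71.5 CPM untreated and 200 ± 104 CPM after DSS in SPF colon (-0.79 ± 0.34, adjusted p = 0.099) and at 445 ± 31.3 and 267 ± 97.4 CPM in COL colon (-0.67 ± 0.34, adjusted p = 0.25). Without SPF DSS replicate 1, 12 genes passed in SPF, Slc40a1 among them (-1.22, adjusted p = 0.017), and without SPF DSS replicate 2, 2 passed. The zinc exporter Slc30a2, which is not tested in colon, had 2 counts over the 3 untreated SPF libraries and 5, 19 and 25 counts in the DSS ones, and 3 counts over the untreated COL libraries and 4, 5 and 0 in the DSS ones. Genes of the Paneth cell list rose beside it (2 of 3 tested in each state), with sums of 164 to 560 CPM untreated and 1880 to 3314 CPM after DSS, and their part in the Slc30a2 counts was not tested.

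Metallothionein levels were uneven among colon libraries. Mt1 was at 870, 682 and 479 CPM in untreated SPF colon, at 329, 386 and 180 CPM in untreated COL colon, at 366, 483 and 1019 CPM in SPF DSS colon and at 961, 181 and 338 CPM in COL DSS colon. The order of libraries within each of these 4 groups was the same for Mt2, with 588 CPM in COL DSS replicate 1 against 61.4 and 143 CPM in the others. The library high in both was the one high in Tfrc. Between untreated COL and SPF colon, Mt1 (-1.21 ± 0.54, adjusted p = 0.64), Mt2 (-2.26 ± 0.86, adjusted p = 0.61) and Slc30a10 (1.48 ± 0.49, adjusted p = 0.54) had an unadjusted p under 0.05, and none passed. That comparison had 0 of 30 genes past the threshold in edgeR (3 at an unadjusted p under 0.05) and 0 in DESeq2, where 0% of all genes passed. Between COL and SPF colon after DSS the counts were 0 past the threshold in edgeR and in DESeq2 and 0 at an unadjusted p under 0.05, where 0.00778% of all genes passed.

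Outside the 34 genes, 65 other genes of metal handling were listed, of which 63 are in the files and 51 were tested in colon. With DSS in SPF colon 14 rose and 7 fell, or 41.2% against 24.1% of all genes (12 to 24 passed with any 1 library left out, and 11 in a fit of the 6 libraries alone). The 65 include S100a8 and S100a9, which are also neutrophil markers. Both are among the 14 that rose, as is Ltf, so this share is in part one of neutrophil genes. In COL colon 4 rose and 1 fell, or 9.80% against 7.14% of all genes (1 to 3 with any 1 library left out, 3 without a filter, 8 in DESeq2 and 9 in the 6 libraries alone). In SPF, the zinc-sensing transcription factor gene Mtf1 rose from 33.1 ± 7.65 to 76.7 ± 6.83 CPM (1.28 ± 0.23, adjusted p = 0.0011). Steap1, the gene of a relative of the metalloreductases of the Steap family, rose from 11.1 ± 2.58 to 66.6 ± 56.1 CPM (2.64 ± 0.52, adjusted p = 0.0032), and the mitochondrial iron-sulfur cluster gene Glrx5 from 146 ± 23.0 to 353 ± 128 CPM (1.33 ± 0.28, adjusted p = 0.0035). The lactoferrin gene Ltf, at 0.0744 ± 0.129 CPM untreated and 4.98 ± 3.90 CPM after DSS, rose as well (adjusted p = 0.0032). Lactoferrin is stored in neutrophil granules. Neutrophil markers summed to 341 to 813 CPM untreated and 1456 to 4202 CPM after DSS in SPF colon (3 of 4 tested of 8 rose, and Mmp8 was at 0 untreated). Of that list, S100a8 and S100a9 were at 0.375 ± 0.257 and 0.152 ± 0.136 CPM untreated and at 200 ± 304 and 185 ± 290 CPM after DSS. Nearly all of the untreated sums in SPF colon thus came from other genes of the list. In COL colon the list summed to 560 to 613 CPM untreated and 1136 to 1425 CPM after DSS (1 of 4 rose, and S100a9, Csf3r, Retnlg and Mmp8 were at 0 untreated). The part of neutrophils in the Ltf results was not tested. Mtf1, Steap1, Glrx5 and Ltf kept these calls in SPF under every alternative. In COL, Ltf (0.0643 ± 0.111 to 4.45 ± 4.19 CPM, adjusted p = 0.0063) kept its call, while the other 4 calls were each lost without at least 1 library. Among those were the mitochondrial iron importer gene Slc25a28 (0.88, adjusted p = 0.023) and Steap1 (2.11, adjusted p = 0.024). Another was Hamp2, a relative of the hepcidin gene Hamp, at 3.99 ± 1.31 CPM untreated and 0.168 ± 0.152 CPM after DSS (adjusted p = 0.035).

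In the ileum at 6 weeks, the iron exporter gene Slc40a1 and the zinc exporter gene Slc30a1 were higher with microbiota, in SPF mice and in mice colonized at 5 weeks. Slc40a1 rose 14.7-fold in SPF and 11.7-fold in COL over GF ileum, and Slc30a1 2.90-fold and 2.61-fold. The copper pump gene Atp7a and the zinc importer gene Slc39a7 also rose in SPF, and the copper importer gene Slc31a1 in COL. That made 4 of 32 in SPF, all higher, where 7.69% of all 13233 genes passed (4.37% rose and 3.33% fell), and 3 of 32 in COL, all higher, where 4.64% passed (2.78% rose and 1.86% fell). The median log2 fold change of the 32 was 0.29 in SPF and 0.17 in COL, and that of all genes -0.02 in both. Both comparisons share the GF libraries. At 6 weeks CPM ratios to GF lie 0.20 (SPF) and 0.24 (COL) on the log2 scale below the TMM-scaled fold changes given here, and no gene of the 34 said to have risen or fallen changes direction with that. In the other comparisons this shift lay between -0.08 and 0.22.

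Slc40a1, at chr1:45908068-45926523 (mm10), was at 9.74, 8.20 and 4.90 CPM in GF ileum at 6 weeks, at 121, 125 and 32.6 CPM in SPF and at 47.2, 76.2 and 95.6 CPM in COL. SPF replicate 3 was the lowest of the colonized libraries and still lay above all GF libraries. The log2 fold changes were 3.88 ± 0.58 in SPF (adjusted p = 0.00097) and 3.55 ± 0.58 in COL (adjusted p = 0.0029), and both kept their call under every alternative. Ferroportin also serves macrophages that recycle iron. Macrophage marker genes summed to 77.5 to 134 CPM in GF, 132 to 178 CPM in SPF and 105 to 117 CPM in COL, with none of the 10 at 0 in a group, and 1 of 10 rose in SPF and 0 in COL. The part of these cells in the result was not tested.

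Slc30a1, the zinc exporter of the plasma membrane (chr1:191906767-191913247, mm10), was at 82.8, 135 and 133 CPM in GF, at 331, 358 and 189 CPM in SPF and at 227, 283 and 268 CPM in COL. Its log2 fold changes were 1.54 ± 0.24 in SPF (adjusted p = 0.00015) and 1.38 ± 0.24 in COL (adjusted p = 0.00080). As for Slc40a1, SPF replicate 3 was the lowest colonized library and no colonized library reached down to GF, and the calls held under every alternative. Atp7a, which pumps copper out of the cell, was at 76.3, 66.9 and 76.0 CPM in GF and at 123, 125 and 114 CPM in SPF (0.93 ± 0.17, adjusted p = 0.00059), and at 83.6, 104 and 79.9 CPM in COL (0.52, adjusted p = 0.074). Slc31a1, the main copper importer, was at 182, 231 and 197 CPM in GF and 307, 268 and 290 CPM in COL (0.74 ± 0.17, adjusted p = 0.0100), a call lost without GF replicate 1 (adjusted p = 0.063). In SPF it was at 277, 282 and 191 CPM (0.51, adjusted p = 0.066) and passed without SPF replicate 3 (0.72, adjusted p = 0.0056). Slc39a7, which releases zinc from the endoplasmic reticulum, was at 81.4, 84.9 and 87.9 CPM in GF and 105, 115 and 116 CPM in SPF (0.60 ± 0.18, adjusted p = 0.038), and lost its call without any 1 of the 6 libraries (adjusted p between 0.058 and 0.15).

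Mt1 in GF ileum at 6 weeks was at 1366, 633 and 552 CPM, in COL at 572, 158 and 168 CPM and in SPF at 374, 424 and 614 CPM. Replicate 1 was the highest in GF and in COL, and COL replicate 1 lay within the range of GF. COL against GF was -1.29 ± 0.44 (adjusted p = 0.13), and without COL replicate 1 it was -2.09 (adjusted p = 0.00051). With that library left out 6 genes passed in COL against GF, 2 of them lower. Between COL and SPF ileum at 6 weeks 0 of 32 genes passed in edgeR (2 at an unadjusted p under 0.05) and 0 in DESeq2, where 0.0982% of all genes passed.

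Of the 47 other metal handling genes tested in ileum, 2 rose and 4 fell in SPF at 6 weeks, or 12.8% against 7.69% of all genes (1 to 3 passed with any 1 library left out). In COL 1 rose and 2 fell, or 6.38% against 4.64% of all genes (1 to 2 passed). Steap1 rose from 6.84 ± 0.934 CPM in GF to 33.3 ± 10.3 CPM in SPF (2.51 ± 0.31, adjusted p = 7.6e-06) and to 24.9 ± 11.4 CPM in COL (2.11 ± 0.31, adjusted p = 0.00016). It kept both calls under every alternative, whereas the other calls, 5 in SPF and 2 in COL, were each lost without at least 1 library.

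At 10 weeks the zinc transporter genes Slc30a1 and Slc39a6 rose and Slc30a4 fell in both colonized groups against GF ileum, and in COL the metallothionein genes fell and Slc40a1 rose. In COL against GF 7 of 32 genes passed (4 rose, 3 fell), where 9.14% of all genes passed (5.10% rose and 4.04% fell). In SPF against GF 3 passed (2 rose, 1 fell), where 6.20% passed (4.22% rose and 1.98% fell). These comparisons again share the GF libraries. For SPF and GF at 10 weeks the replicate numbers paired the libraries by the check described with the processing, and with the number as a block 5 passed in these 6 libraries (2 rose, 3 fell) and 2 over all 18 ileum libraries.

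The metallothionein genes Mt1 and Mt2 lie side by side (chr8:94179082-94180327 and chr8:94172664-94173568, mm10). Mt1 was at 1287, 1751 and 1217 CPM in GF ileum at 10 weeks, at 275, 344 and 237 CPM in COL and at 451, 533 and 600 CPM in SPF. Mt2 was at 692, 1029 and 587 CPM in GF, at 76.1, 126 and 79.3 CPM in COL and at 194, 329 and 453 CPM in SPF. For both genes every GF library lay above every SPF library, and every SPF library above every COL library. In COL, Mt1 fell 4.98-fold (-2.32 ± 0.45, adjusted p = 0.0049) and Mt2 8.20-fold (-3.04 ± 0.69, adjusted p = 0.015). The Mt1 call held under every alternative, and that of Mt2 was lost without COL replicate 1 or 3 (adjusted p = 0.053 and 0.063). In SPF, Mt1 (-1.37 ± 0.44, adjusted p = 0.089) and Mt2 (-1.17 ± 0.65, adjusted p = 0.37) did not pass. In the fit of the 6 libraries with the replicate block both fell (-1.38, adjusted p = 0.00043, and -1.26, adjusted p = 0.045), but Mt1 also passed in these 6 libraries without a block (-1.38, adjusted p = 0.0029) and did not with the block over 18 libraries (-1.35, adjusted p = 0.11). COL against SPF at 10 weeks was -0.95 ± 0.43 for Mt1 (adjusted p = 0.62) and -1.87 ± 0.67 for Mt2 (adjusted p = 0.48), so the order of COL and SPF was not past the threshold.

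Slc40a1 at 10 weeks was at 8.71, 5.77 and 3.30 CPM in GF, 25.3, 66.1 and 40.5 CPM in COL and 14.9, 13.6 and 19.7 CPM in SPF, and the 3 groups did not overlap. It rose 7.44-fold in COL (2.90 ± 0.59, adjusted p = 0.0071), under every alternative. In SPF it did not pass (1.46 ± 0.62, adjusted p = 0.22), nor with the replicate block over 18 libraries (1.48, adjusted p = 0.25) or in the 6 libraries without a block (1.47, adjusted p = 0.054). In the 6 libraries with the block it passed (1.49, adjusted p = 0.039). Macrophage marker genes moved with it, with sums of 77.2 to 93.4 CPM in GF, 204 to 254 CPM in COL and 161 to 199 CPM in SPF, and 5 of 10 rose in COL and 4 of 10 in SPF. The part of these cells in the level of Slc40a1 was not tested.

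Among the zinc exporters, Slc30a4, which loads zinc into vesicles, was at 449, 413 and 410 CPM in GF at 10 weeks, at 340, 214 and 234 CPM in COL and at 263, 254 and 175 CPM in SPF. It fell 1.80-fold in SPF (-0.85 ± 0.17, adjusted p = 0.0026; -0.86 in the 6 libraries with the block, adjusted p = 0.0061) and 1.61-fold in COL (-0.69 ± 0.17, adjusted p = 0.0097). All GF libraries lay above all colonized ones. The COL call was lost without COL replicate 2 (adjusted p = 0.078). At 6 weeks the GF libraries, at 423, 386 and 467 CPM, also lay above SPF (264, 262 and 266 CPM) and COL (304, 285 and 278 CPM), and neither difference passed in edgeR (-0.49, adjusted p = 0.082, and -0.32, adjusted p = 0.34). The SPF difference passed in DESeq2 (adjusted p = 0.039) and in an edgeR fit of its 6 libraries alone (-0.50, adjusted p = 0.024).

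Slc30a1 was at 120, 128 and 107 CPM in GF at 10 weeks, at 238, 200 and 213 CPM in COL and at 195, 203 and 246 CPM in SPF. It rose 1.83-fold in COL (0.88 ± 0.24, adjusted p = 0.019) and 1.88-fold in SPF (0.91 ± 0.24, adjusted p = 0.022; 0.89 in the 6 libraries with the block, adjusted p = 0.0074). Slc30a1 and Slc30a4, both exporters, thus moved in opposite directions in these comparisons. The SPF call on Slc30a1 was lost without any 1 GF library or SPF replicate 3 (adjusted p between 0.064 and 0.11), and the COL call without any 1 GF library or COL replicate 1 or 3 (between 0.052 and 0.096).

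The importer gene Slc39a6 had low counts, between 14 and 81 in every library. It was at 4.57, 2.18 and 5.05 CPM in GF at 10 weeks, at 10.0, 11.2 and 7.67 CPM in COL (1.30 ± 0.36, adjusted p = 0.019) and at 9.45, 8.11 and 9.40 CPM in SPF (1.23 ± 0.36, adjusted p = 0.040). The colonized libraries lay above all GF libraries. The SPF call was lost with the replicate block over 18 libraries (adjusted p = 0.053) and over the 6 libraries (1.30, adjusted p = 0.12), in the 6 libraries without a block (0.17), without a filter (0.072) and without any 1 library (0.054 to 0.22), and the COL call without COL replicate 1 or 2 or GF replicate 2 (highest adjusted p = 0.14). Slc39a7 was at 63.3, 66.2 and 41.3 CPM in GF and 89.2, 91.6 and 78.8 CPM in COL (0.60 ± 0.18, adjusted p = 0.036). Its call was lost without 5 of the 6 libraries in turn (all but GF replicate 2) and in the fit of the 6 libraries alone, with adjusted p between 0.050 and 0.25.

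**Figure D3:**
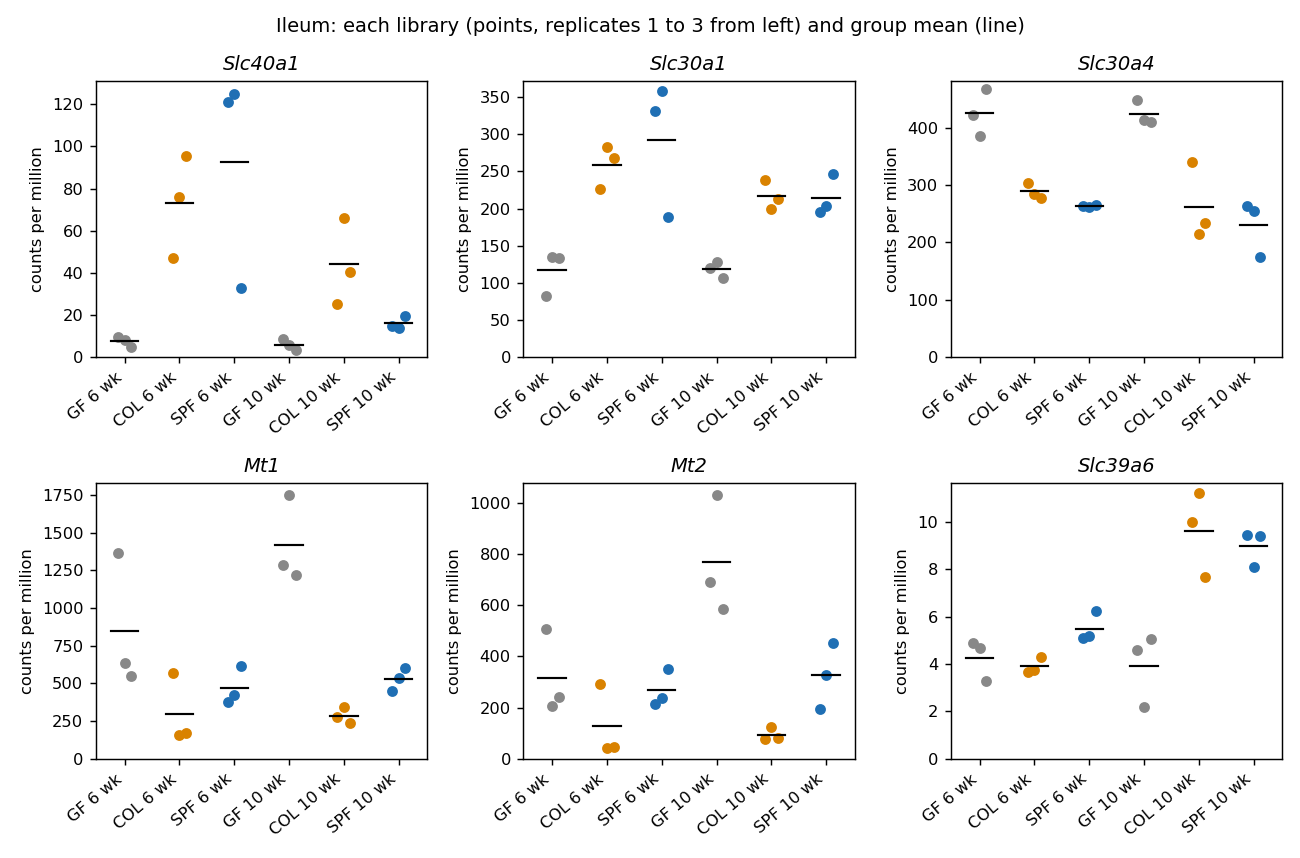
CPM (y axes, linear from 0) of 6 genes in the 6 ileum groups (x axes; GF, COL and SPF at 6 and 10 weeks), with a point for each library and a line at the group mean. Slc40a1 and Slc30a1 are lowest in GF at both ages, Slc30a4 is highest in GF, and Mt1 and Mt2 are highest in GF at 10 weeks.

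SPF replicate 3 at 10 weeks was the shallowest library (2233837 reads) and had smooth muscle markers at 212 CPM, against 1494 and 1901 CPM in the other two. Between COL and SPF ileum at 10 weeks 0 of 32 genes passed in edgeR (5 at an unadjusted p under 0.05) and 0 in DESeq2, where 0.0907% of all genes passed (0.0680% higher). Of the other metal handling genes, 2 rose and 4 fell in COL against GF, or 12.8% against 9.14% of all genes (4 to 7 passed with any 1 library left out). In SPF 0 rose and 3 fell, or 6.38% against 6.20% of all genes (1 to 4 with any 1 library left out, and 1 in the 6 libraries alone). The superoxide dismutase gene Sod1, whose product carries copper and zinc, fell in COL from 1548 ± 215 to 816 ± 130 CPM (-0.92 ± 0.19, adjusted p = 0.0020). The mitochondrial iron importer gene Slc25a37 fell in COL from 371 ± 45.6 to 195 ± 58.2 CPM (-0.92 ± 0.19, adjusted p = 0.0021), and Aco1, the gene of an iron-sensing regulator of Tfrc and ferritin mRNA, from 264 ± 10.8 to 163 ± 22.1 CPM (-0.69 ± 0.15, adjusted p = 0.0026). Steap1 rose from 7.55 ± 1.07 to 21.4 ± 4.39 CPM (1.51 ± 0.31, adjusted p = 0.0023). Those 4 kept their calls in COL under every alternative. In SPF, Slc25a37 (-0.80, adjusted p = 0.010), Aco1 (-0.60, adjusted p = 0.012) and Sod1 (-0.69, adjusted p = 0.025) fell, and each of these calls was lost without at least 1 library (highest adjusted p over all alternatives 0.052, 0.065 and 0.12).

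From 6 to 10 weeks the genes that passed were lower. In SPF ileum 2 of 32 fell, where 1.37% of all genes passed (0.574% rose and 0.793% fell). Slc39a7 fell from 105, 115 and 116 CPM to 65.0, 59.8 and 46.6 CPM (-1.11 ± 0.18, adjusted p = 0.0081), a call lost without SPF replicate 2 at 6 weeks (adjusted p = 0.076). Slc40a1 fell from the 6-week values above to those at 10 weeks (-2.74 ± 0.56, adjusted p = 0.039), and the call was lost without any 1 of 5 of the 6 libraries (all but replicate 3 at 6 weeks; adjusted p between 0.058 and 0.16), in a fit of the 6 libraries alone (0.13) and with the replicate block over 18 libraries (-2.68, adjusted p = 0.062). Without replicate 2 at 6 weeks 0 passed, and without replicate 3 at 6 weeks 4 passed, all lower. The SPF to GF difference of Slc40a1 at 10 weeks minus that at 6 weeks was -2.42 ± 0.84 (adjusted p = 0.47), so a change of the microbiota difference with age did not pass. Macrophage marker sums in SPF ileum were 132 to 178 CPM at 6 weeks and 161 to 199 CPM at 10 weeks. Their part in the age difference of Slc40a1 was not tested.

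In COL ileum 2 of 32 fell from 6 to 10 weeks, where 2.53% of all genes passed (1.62% rose and 0.914% fell). Slc30a10 fell from 40.3, 26.4 and 27.6 CPM to 17.3, 9.54 and 18.7 CPM (-1.25 ± 0.29, adjusted p = 0.019), and Slc31a1 from 307, 268 and 290 CPM to 182, 219 and 219 CPM (-0.70 ± 0.17, adjusted p = 0.028). The Slc30a10 call was lost without COL replicate 2 at 10 weeks or replicate 1 or 3 at 6 weeks (adjusted p = 0.12, 0.067 and 0.071), and the Slc31a1 call without any 1 library but replicate 2 at 6 weeks (0.053 to 0.13). Slc30a10 was also lower at 10 weeks without overlap in GF (37.3 ± 4.84 to 19.1 ± 7.65 CPM, -0.95 ± 0.28, adjusted p = 1.00) and SPF ileum (33.9 ± 3.34 to 20.4 ± 5.15 CPM, -0.91 ± 0.29, adjusted p = 0.096), and neither passed. In GF ileum 0 of 32 passed in edgeR (3 at an unadjusted p under 0.05) and 0 in DESeq2, where 0.0302% of all genes passed. The SPF or COL difference to GF changed with age past the threshold in none of the 32 (0 in edgeR and in DESeq2; 6 and 5 at an unadjusted p under 0.05; background 0.0151%, with 0.00756% in each direction, and 0.144%). Of the other metal handling genes, Steap1 fell with age in SPF ileum (12.3 ± 1.67 from 33.3 ± 10.3 CPM, -1.61 ± 0.30, adjusted p = 0.014), the only 1 of 47 to pass there, or 2.13% against 1.37% of all genes. That call was lost, leaving 0, without replicate 1 or 2 at 6 weeks (adjusted p = 0.091 and 0.12) and in the 6 libraries alone (0.054). In COL ileum 1 rose and 2 fell, or 6.38% against 2.53% of all genes (0 to 4 passed with any 1 library left out, and 6 in DESeq2).

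Distal colon and ileum of untreated 10-week mice differed in 12 of 32 genes in SPF (4 higher in colon, 8 lower), where 32.5% of all 13807 genes passed (15.3% higher and 17.2% lower), and in 12 of 32 in COL (5 higher, 7 lower), where 26.2% passed (11.9% higher and 14.3% lower). Colon had more Slc40a1 and ferritin RNA, and ileum had more RNA of the zinc transporters Slc30a1, Slc30a2, Slc30a5, Slc39a4, Slc39a5 and Slc39a14 and of the ferroxidase Heph. The 2 tissues were fitted together over all 30 libraries.

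Slc40a1 was 21.5-fold higher in colon than in ileum of SPF mice, at 380, 289 and 429 CPM against 14.9, 13.6 and 19.7 CPM (4.42 ± 0.54, adjusted p = 7.9e-07). In COL mice it was 9.63-fold higher, at 463, 462 and 408 CPM against 25.3, 66.1 and 40.5 CPM (3.27 ± 0.50, adjusted p = 2.0e-05). No colon library came near the ileum levels. Macrophage marker sums were 179 to 267 CPM in colon and 161 to 199 CPM in ileum of SPF mice. In COL mice they were 174 to 205 CPM in colon and 204 to 254 CPM in ileum. Their part in the tissue difference of Slc40a1 was not tested. Fth1 was higher in colon in SPF (2537 ± 151 against 1667 ± 304 CPM, 0.50 ± 0.19, adjusted p = 0.042) and COL (3260 ± 336 against 1736 ± 130 CPM, 0.83 ± 0.19, adjusted p = 0.0013), with the SPF call lost without SPF colon replicate 1 or 3, without any 1 ileum library, without a filter and in a fit of the 6 libraries alone (adjusted p up to 0.19). Ftl1 was at 1742, 737 and 348 CPM in SPF colon against 461, 350 and 394 CPM in ileum (1.13 ± 0.29, adjusted p = 0.0034), and without SPF colon replicate 1 its log2 fold change was 0.31 (adjusted p = 0.32). In COL it was at 787 ± 46.7 against 415 ± 34.4 CPM (0.85 ± 0.29, adjusted p = 0.030), a call lost without any 1 of the 6 libraries but COL colon replicate 1 (0.062 to 0.094).

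Slc30a2, a vesicular zinc exporter, had 518 counts over the 3 SPF ileum libraries and 2 over the 3 SPF colon libraries, a 250-fold CPM ratio (95% counting interval 68.9 to 2070), and 772 and 3 counts in COL (257-fold, 87.7 to 1250). The intervals cover counting error only. Genes of the Paneth cell list, all 5 of which were lower in colon in both states, summed to 4519 to 9870 CPM in ileum of these mice and to 164 to 560 CPM in colon, and their part in the Slc30a2 difference was not tested. Across ileum groups Slc30a2 stayed between 30.1 and 61.9 CPM in each library, while the Paneth cell list summed to between 2956 and 12867 CPM.

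The other genes with more RNA in ileum were zinc transporters and Heph. Slc39a4, the importer for dietary zinc on the apical membrane, was at 395 ± 136 CPM in SPF colon and 947 ± 185 CPM in ileum (-1.39 ± 0.28, adjusted p = 0.00027), and at 352 ± 35.8 and 666 ± 111 CPM in COL (-1.01 ± 0.28, adjusted p = 0.0074). Slc30a1 was 2.96-fold and 3.19-fold lower in colon of SPF and COL mice (adjusted p = 9.8e-06 and 3.6e-06), and Slc39a14, a zinc, iron and manganese importer, 2.44-fold and 3.02-fold lower (7.5e-05 and 2.5e-06). Slc30a5, a zinc exporter of the secretory pathway, was 2.48-fold and 2.17-fold lower (3.4e-05 and 0.00022), and Slc39a5, a basolateral zinc importer, 3.05-fold and 2.30-fold lower (0.0030 and 0.025). Heph was at 117 ± 20.1 against 194 ± 26.3 CPM in SPF (-0.85 ± 0.20, adjusted p = 0.00099) and at 154 ± 7.26 against 226 ± 32.4 CPM in COL (-0.63 ± 0.19, adjusted p = 0.014). The Slc39a5 call in COL was lost without any 1 library but COL ileum replicate 2 and without a filter (0.053 to 0.091), and the Heph call in COL without COL ileum replicate 1 (0.084).

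Of the calls in 1 microbiota state, Slc30a4 was lower in SPF colon (-0.56 ± 0.19, adjusted p = 0.019) and Slc39a7 higher (0.58 ± 0.22, adjusted p = 0.040), while in COL colon Slc30a10 (1.11 ± 0.39, adjusted p = 0.032) and Slc39a8, which imports zinc and manganese (0.93 ± 0.33, adjusted p = 0.035), were higher. Slc30a10 in SPF colon was at 22.5, 7.59 and 6.81 CPM against 19.3, 15.8 and 26.0 CPM in ileum (-0.84 ± 0.41, adjusted p = 0.12). Without SPF colon replicate 1, its highest colon library, it was lower in SPF colon (-1.61, adjusted p = 0.0036), the opposite direction to COL. Whether the tissue difference of any gene differed between SPF and COL mice was not tested. The Slc30a4 call was lost without SPF colon replicate 3 or ileum replicate 2 and in a fit of the 6 libraries alone (adjusted p up to 0.14). Those of Slc39a7, Slc30a10 and Slc39a8 were each lost without 5 of their 6 libraries in turn, with adjusted p up to 0.15, 0.17 and 0.18.

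**Figure D4:**
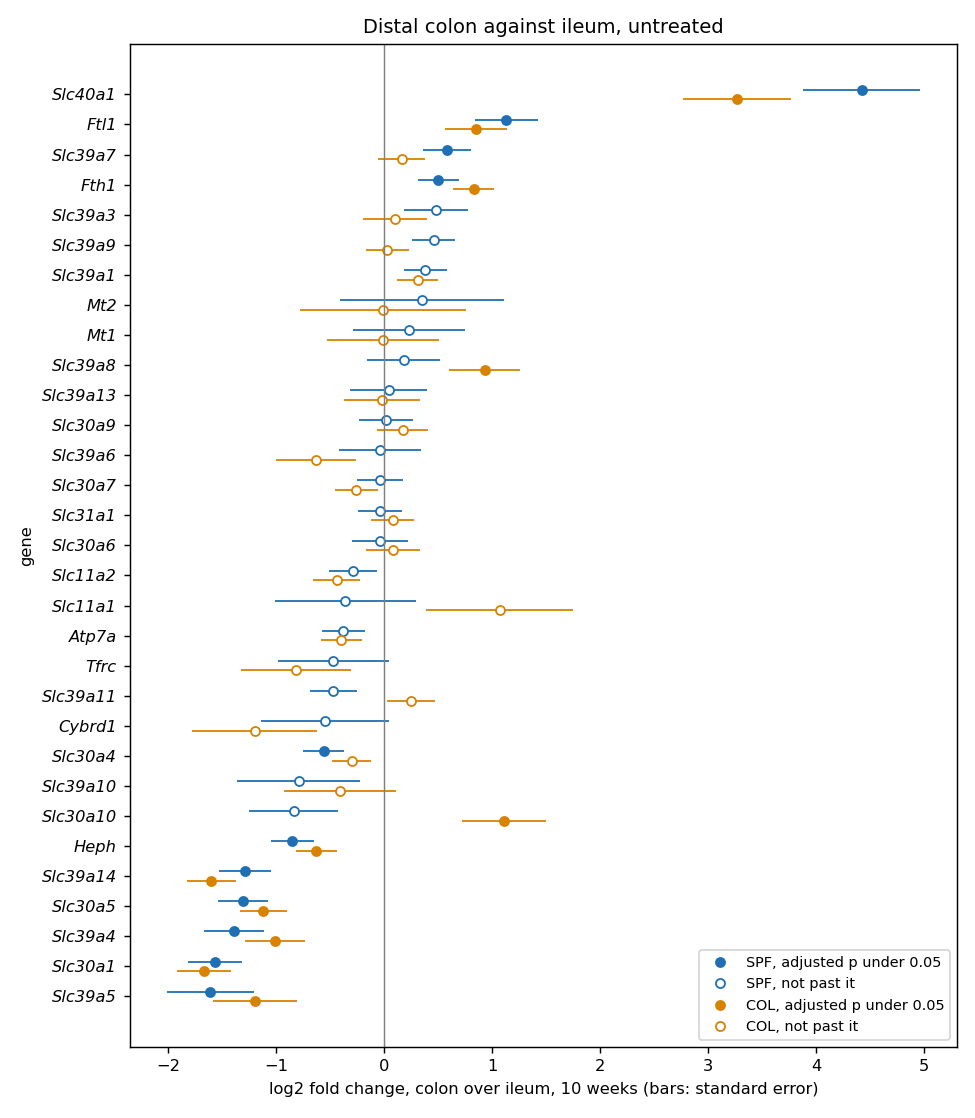
Log2 fold change of colon over ileum at 10 weeks (x axis, bars are standard errors) for 31 genes (y axis) in SPF (blue) and COL mice (orange), with filled points where the adjusted p was under 0.05; Slc30a2 is left out because its colon counts are near 0. Slc40a1 stands far to the right in both, and Slc39a5, Slc30a1, Slc39a4, Slc30a5 and Slc39a14 lie at the left.

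Of the 52 other metal handling genes tested, 9 were higher and 7 lower in SPF colon, or 30.8% against 32.5% of all genes (8 to 19 passed with any 1 library left out, and 10 in the 6 libraries alone). In COL colon 9 were higher and 9 lower, or 34.6% against 26.2% of all genes (11 to 15 with any 1 library left out). The SPF share was thus near that of all genes. Slc25a37 was lower in colon in both states (-2.34 ± 0.24, adjusted p = 2.0e-09, and -2.26 ± 0.24, adjusted p = 4.0e-09). Atp2c2, the gene of a secretory-pathway calcium and manganese pump, was at 438 ± 53.2 CPM in SPF colon and 26.1 ± 5.76 CPM in ileum (3.97 ± 0.42, adjusted p = 3.8e-08), and at 362 ± 102 and 21.5 ± 6.85 CPM in COL (3.99 ± 0.42, adjusted p = 3.4e-08). Aco1 was lower in colon (-1.33 ± 0.16, adjusted p = 8.0e-08, and -1.18 ± 0.16, adjusted p = 7.2e-07). Those calls held under every alternative.

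The other 9 genes tested passed in no comparison of the edgeR fits described above. They are the exporters Slc30a6, Slc30a7 and Slc30a9, the importers Slc39a3, Slc39a9 and Slc39a13, the ferrous iron importer Slc11a2, its relative Slc11a1 of phagocytes, and Cybrd1. Slc11a2, the intake route for ferrous iron, lay between 55.3 and 122 CPM over all 30 libraries. Cybrd1, which reduces dietary iron before uptake, had at most 46 counts in any library and Slc11a1 at most 2.51 CPM, so that small differences in these 2 were not detectable at this depth. Slc39a9 passed, higher in colon than in ileum of SPF mice, without SPF colon replicate 3 (0.60, adjusted p = 0.033) or SPF ileum replicate 3 (0.63, adjusted p = 0.026).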

How the data were processed

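RNA of whole ileum and distal colon was sequenced as 3' end tags (QuantSeq) on an Ion Torrent instrument, per the labels. The deposited values are raw counts per gene, which the authors made with Trimmomatic 0.36, FastQC 0.11.5, STAR 2.5.3a and HTSeq on mm10, per the submitters' processing notes. The strand setting and annotation of the counting are not given in the sources used here, so overlapping and antisense genes cannot be told apart. 5 HTSeq summary lines per file were left out, and replicates all differed beyond sampling noise (chi-square per degree of freedom 5.46 to 52.2).

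Counts were filtered (filterByExpr by group, minimum count 10), TMM-scaled (factors 0.812 to 1.12) and tested with edgeR 4.0.16 (quasi-likelihood F-test, robust, R 4.3.3, limma 3.58.1) in fits of the 12 colon, 18 ileum or, for tissues, all 30 libraries, without covariates, in 18 comparisons. Adjusted p-values are Benjamini-Hochberg over all genes tested, at 0.05, and standard errors are the log2 fold change over the square root of F. CPM is the count over all gene counts of the library and is not TMM-scaled. For some of the comparisons the tests were also run on data simulated at the depths and spread of these libraries. Each gene's mean was pooled over the groups of the fit, and the outcome is not reported here. DESeq2 1.42.0, other scaling, no filter, a replicate block, fits of the compared groups alone and leaving out each library were alternatives. The 34 genes, the lists and the rules were chosen with earlier results of these data known. Every gene of the 34 that passed is named, and of other metal handling genes up to 4 per comparison with the smallest adjusted p. S100a8 and S100a9 are named beside these because they are also neutrophil markers. Same-numbered libraries deviated together (every pair's correlation over 0.1) only for SPF against GF ileum at 10 weeks, with r = 0.25, 0.19 and 0.16, a hint from the data and not from the labels.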

Additional observations from a re-analysis of the deposited data

How the results depend on the processing

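Of 54 calls on the 34 genes, 26 held under every alternative and 28 were lost under at least 1, and no call reversed. Of 67 uncalled differences with an unadjusted p under 0.05, 22 passed under at least 1 alternative. A fit of the compared groups alone gave 3 calls in place of 6 for DSS in SPF colon, 5 in place of 3 for COL against GF ileum at 6 weeks and 1 in place of 2 for age in SPF ileum, and DESeq2 gave 5 for COL against GF ileum at 6 weeks. The cause was not tested. With the replicate number as a block, age in SPF ileum had 1 call in place of 2, and SPF against GF ileum at 10 weeks had 2 over 18 libraries and 5 in place of 3 over its own 6 libraries, a fit chosen after seeing the data. The block left the other counts within 1.5 times. With each library left out in turn, calls ranged from 2 to 12 for DSS in SPF colon, 1 to 3 for DSS in COL colon, 3 to 4 and 2 to 6 for SPF and COL against GF ileum at 6 weeks, 1 to 2 and 3 to 5 at 10 weeks, 0 to 4 and 0 to 2 for age in SPF and COL ileum, and 10 to 12 and 7 to 9 for tissue in SPF and COL, and stayed at 0 to 0 elsewhere. Low counts limit Slc39a2, Atp7b, Cybrd1, Slc11a1, Slc39a6 and Slc39a10, and 3' tags do not separate near-identical copies of ferritin and metallothionein genes.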
